A study of Homo sapiens with 8 samples.

Results

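The 9 genes described here encode subunits of NuRD, a complex that remodels nucleosomes and deacetylates histones: CHD4, CHD3, HDAC1, HDAC2, MTA1, MTA2, MBD3, GATAD2A and CDK2AP1. They were chosen for belonging to this complex, with earlier results of these data known, and other NuRD genes were not analysed. Each gene was taken as its hg19 span plus 20 kb on each side. A member is any peak of CHD4, called by the authors in 1 of 6 libraries, that touches such a window. The windows held 24 of the 36876 peaks of the 6 lists. Merging peaks that overlap by at least 1 bp gave 13 regions in the windows, of 18808 in all. The cells were SCC9, an established squamous carcinoma line, grown with serum and hydrocortisone and DNA bound by CHD4 was recovered with an antibody and sequenced (ChIP-seq). Of the 6 libraries, 3 came from cells without DOC1, titled lacZ, and 3 from cells with DOC1, titled DOC1. DOC1 is the product of CDK2AP1, and the design asked how the binding of NuRD differs with it. The labels do not say how DOC1 was supplied, whether either group is a single clone, or whether numbered libraries came from separate cultures.

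NuRD joins 2 enzymes in 1 assembly: an ATP-driven motor, CHD4 or CHD3, that slides nucleosomes, and the histone deacetylases HDAC1 and HDAC2. MTA proteins hold the deacetylases and the histone-binding subunits together, MBD3 belongs to the family of methyl-CpG-binding proteins, and GATAD2A links MBD3 to the motor. CDK2AP1 is a small subunit first described as deleted in oral cancer. A peak near such a gene is a place where the authors' peak calling listed an excess of reads recovered with the CHD4 antibody. These windows thus show where such peaks were listed near genes of the complex that CHD4 belongs to. A peak does not tell whether the rest of NuRD was there, or which nearby gene it concerns.

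CHD4 peaks lay in 7 of the 9 windows, were few in each, and mostly stood outside the spans of the 9 genes. No peak of any library lay in the windows of CDK2AP1 and HDAC2. Of the 13 regions, 10 lay in the flanks and 3 inside a gene, 2 of them in CHD3 and 1 in GATAD2A. Flanks may hold neighbouring genes, and these counts were not set against the share of the windows that flanks make up. By library, the windows held 4 peaks in lacZ 1, 2 in lacZ 2 and 3 in lacZ 3, and 7 in DOC1 1, 0 in DOC1 2 and 8 in DOC1 3. The DOC1 libraries thus held both the highest and the lowest numbers, and the groups overlapped. Per lacZ library the mean was 3.0 ± 1.0 peaks, and per DOC1 library 5.0 ± 4.36 (SD, n = 3), a difference smaller than the spread of the DOC1 libraries. The difference of 2.0 peaks became 1.0 without DOC1 1, 4.5 without DOC1 2 and 0.5 without DOC1 3. In lists of equal length it was 0, with a mean of 1.0 peak in both groups.

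**Figure D1:**
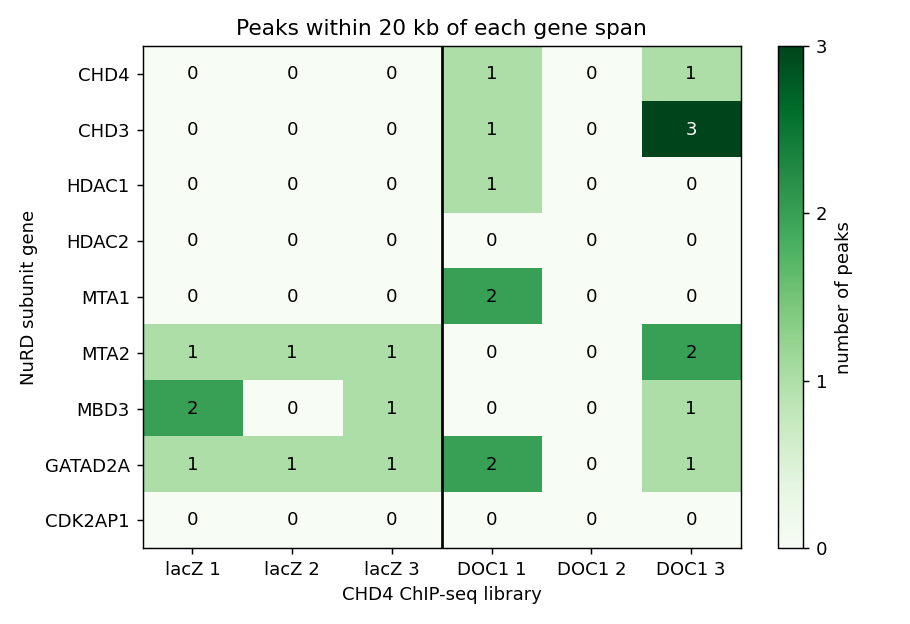
Number of CHD4 peaks that touch each gene span plus 20 kb on each side, for the 9 genes (rows) in the 3 lacZ and 3 DOC1 libraries (columns, parted by a black line). DOC1 2 has 0 in every row, CDK2AP1 and HDAC2 have 0 in every column, and CHD3 in DOC1 3 has the most, 3.

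The deposited lists held 2812 to 11032 peaks, and DOC1 3, DOC1 1 and lacZ 1, which had the most peaks in the windows, had the longest. With every list limited to its 2812 peaks of lowest p-value, the windows held 1, 2 and 0 peaks in lacZ 1, lacZ 2 and lacZ 3 and 2, 0 and 1 in DOC1 1, DOC1 2 and DOC1 3. The windows held 0.569, 0.711 and 0.635 peaks per 1000 peaks of the list in lacZ 1, lacZ 2 and lacZ 3, and 0.894, 0 and 0.725 in DOC1 1, DOC1 2 and DOC1 3. On this scale the mean was 0.639 ± 0.0711 without DOC1 and 0.540 ± 0.475 with it (SD, n = 3), and without DOC1 2 the order turned, to 0.809 with DOC1. DOC1 2 had 3448 peaks, more than the 2812 of lacZ 2, which placed 2 in the windows. The windows added up to 711.8 kb and held 5.62, 2.81 and 4.21 peaks per Mb in lacZ 1, lacZ 2 and lacZ 3, where the whole lists held 2.31, 0.923 and 1.55 per Mb. In DOC1 1 and DOC1 3 the windows held 9.83 and 11.2 peaks per Mb, and the whole lists 2.57 and 3.62. In DOC1 2 the windows held 0 per Mb and the whole list 1.13. Cutting the genome into tiles of 80 kb, close to the mean window of 79.1 kb, gave a peak in 11.5%, 5.60% and 8.51% of tiles in lacZ 1, lacZ 2 and lacZ 3, against 3, 2 and 3 of the 9 windows. For DOC1 1, DOC1 2 and DOC1 3 these shares were 13.0%, 7.60% and 16.1% of tiles, against 5, 0 and 5 of the 9 windows. Over all 6 libraries, 25.1% of tiles held a peak. Tiles include stretches without genes and assembly gaps, so they are a background of another make-up than windows built around genes. Tiles are also of equal length, while the windows ran from 48.6 kb at MTA2 to 163.1 kb at GATAD2A.

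Presence of the regions across libraries was close to that of all regions of the series. Of the 13 regions, 7 were found in 1 library alone (53.8%), beside 56.2% of all regions. DOC1 libraries alone held 8 of the 13 (61.5%), beside 55.4% of all regions, lacZ libraries alone held 1 (7.69%), beside 16.7%, and both groups shared 4 (30.8%), beside 27.8%. No region in the windows was found in all 6 libraries, a pattern of 2.75% of all regions. None was found in all 3 DOC1 and no lacZ libraries or in all 3 lacZ and no DOC1 libraries, patterns of 0.978% and 1.18% of all regions. A difference of 2 or more libraries in favour of DOC1 was found for 2 regions, at CHD4 and CHD3, beside 12.2% of all regions. The same difference in favour of lacZ was found for 1 region, at MTA2, beside 6.70% of all regions. Only the MTA2 region was found in 4 or more libraries, a pattern of 13.9% of all regions. In Fisher's exact test of presence (two-sided) over all 18808 regions, with Benjamini-Hochberg adjustment, 0 regions passed and 0 had an unadjusted p under 0.05. The design of 3 against 3 libraries allows no p below 0.1. A region missing from a library is one that its peak calling did not list, and CHD4 may still have been present there.

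The member peaks were of ordinary strength for their lists. Fold enrichment, as the authors' peak caller gave it, compares the summit with its local background and can be ranked only inside 1 list. It ran from 3.72 to 8.83 in the windows, where the highest fold in any list was 39.4. Of the 24 peaks, 13 stood above the median fold of their own list, and their median percentile, the share of peaks of the same list with an equal or lower fold, was 57.8. Their widths ran from 224 to 573 bp. The number of reads at each summit was worked out from the fold and the p-value and ran from 11 to 56. The weakest summit of any peak held between 8 reads, in lacZ 3 and DOC1 1, and 19 reads, in DOC1 3. These are the lowest values among listed peaks and not a measured limit of detection. Binding of CHD4 at sites with fewer reads cannot be read from the lists.

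**Figure D2:**
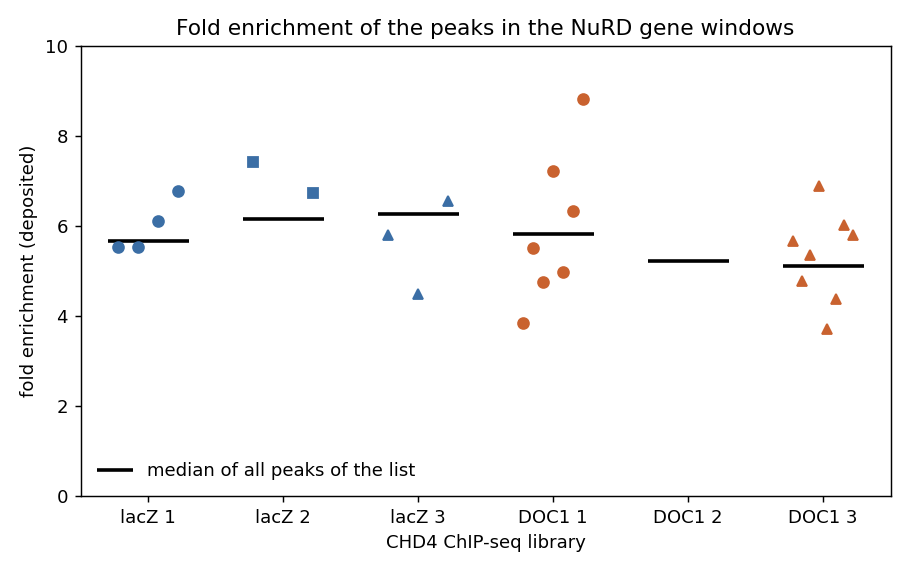
Deposited fold enrichment of the 24 peaks in the windows (points, 1 per peak; blue lacZ, orange DOC1), with the median of all peaks of each list as a black bar. Points lie on both sides of the bar in every library with 3 or more of them, the 2 peaks of lacZ 2 lie above it, and DOC1 2 has none; folds of different libraries are not on 1 scale.

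CDK2AP1, the gene of DOC1 itself, had no CHD4 peak within 20 kb of its span in either group. Of all 80 kb tiles, 25.1% held a peak in any library, so a stretch without a peak was the usual case. The CDK2AP1 span is chr12:123745517-123756763 on the minus strand. The peak nearest to its start lay 145.2, 354.7 and 111.3 kb away in lacZ 1, lacZ 2 and lacZ 3, and 262.0, 324.9 and 185.8 kb away in DOC1 1, DOC1 2 and DOC1 3. The distances of both groups overlapped. Peak lists do not measure the amount of DOC1, so they do not check the labels of the groups. The bases just before its first start in the RefSeq promoter table, 989 bp inside the 5′ end of the gene there, are shown because DOC1 is the subunit that the study varied. They are chr12:123271252-123271501 in GRCh38.p14, minus strand, a build other than that of the peaks. Capitals mark matches to any of 5 motifs, each searched on both strands. The GC box was searched as GGGCGG. The CCAAT box was searched by the letters of its name. The E-box was searched as CACGTG. The ETS-type site was searched as CCGGAAG. The AP-1 site was searched as TGANTCA. Matches to different motifs may overlap.
CDK2AP1: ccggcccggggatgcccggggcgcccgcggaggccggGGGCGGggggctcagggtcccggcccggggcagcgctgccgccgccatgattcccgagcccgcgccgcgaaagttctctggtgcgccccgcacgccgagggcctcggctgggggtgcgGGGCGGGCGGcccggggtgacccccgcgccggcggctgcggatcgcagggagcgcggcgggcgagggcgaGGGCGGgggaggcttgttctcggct
These 250 bases had a GC content of 82.8% and 40 CpG, where the median of all 35116 entries of the table was 58.0% and 11. Their 4 matches were all GC boxes, 2 of which overlap, and 42.6% of entries hold at least 1 such match. A match is a description of letters and not a bound site.

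Of the deacetylase genes, HDAC1 had a peak in 1 library and HDAC2 in none. The HDAC1 span is chr1:32757708-32799224 on the plus strand, and its peak was the only one within 1 kb of the 5′ end of any of the 9 spans. It lay at chr1:32757335-32757558 in DOC1 1, from -373 to -150 bp relative to the start. Its fold was 4.75, the 17.2nd percentile of that list, from 14 reads at the summit (95% Poisson interval 7.65 to 23.5, counting error only) over a background of 2.16 reads. The other 5 libraries had no peak in the HDAC1 window, and their nearest peaks lay 55.4 kb (lacZ 1) to 158.1 kb (lacZ 2, lacZ 3 and DOC1 2) from the start. The promoter is shown because this peak reaches its upstream part. It is chr1:32291833-32292082 in GRCh38.p14, plus strand, with matches marked as for CDK2AP1.
HDAC1: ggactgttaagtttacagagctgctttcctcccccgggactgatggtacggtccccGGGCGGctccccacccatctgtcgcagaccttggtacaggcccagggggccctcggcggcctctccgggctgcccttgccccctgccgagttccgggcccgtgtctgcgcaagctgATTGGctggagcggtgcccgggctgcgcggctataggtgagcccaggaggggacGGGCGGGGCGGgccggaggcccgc
The sequence held 3 GC boxes, 2 of them overlapping, and 1 CCAAT box on the reverse strand. A CCAAT box is found in 32% of entries. HDAC2, at chr6:114257320-114292359 on the minus strand, had no peak in its window in any library. Its nearest peak was 23.7 kb upstream of the start in DOC1 3, at 98.5 and 111.8 kb in DOC1 2 and DOC1 1, and at 316.4 to 325.9 kb in the lacZ libraries.

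**Figure D3:**
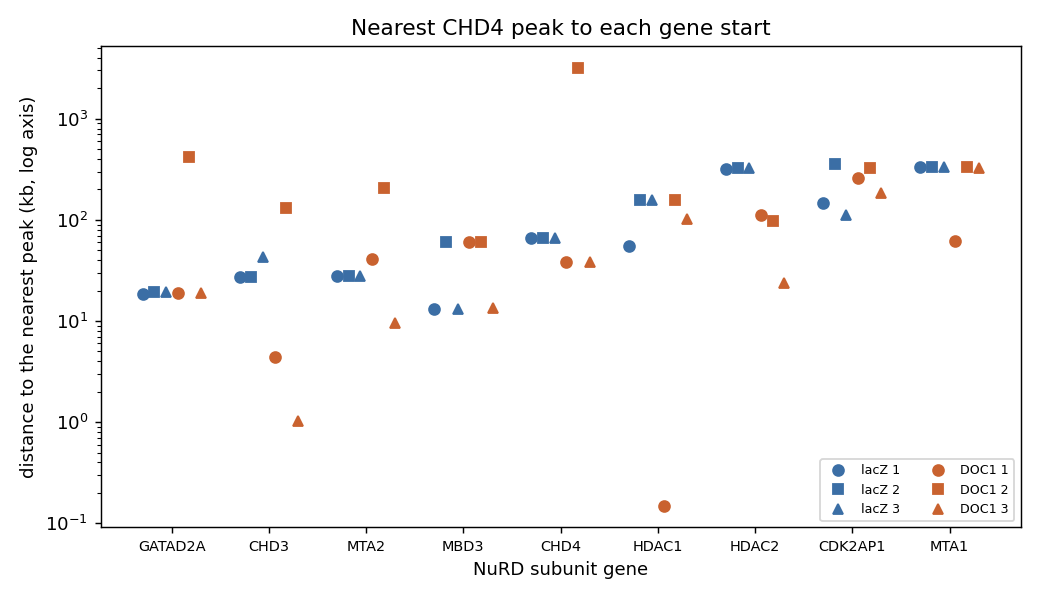
Distance in kb, on a log axis, from the 5′ end of each gene span to the nearest CHD4 peak in each library (blue lacZ, orange DOC1; circle, square and triangle for replicates 1, 2 and 3). Genes are ordered by the median over the 6 libraries, from 19.1 kb for GATAD2A to 331.6 kb for MTA1, and the lowest point is the HDAC1 peak of DOC1 1 at 0.15 kb.

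Within 20 kb of their spans, the motor genes CHD4 and CHD3 had peaks in DOC1 1 and DOC1 3 and in no lacZ library. Of all regions, 55.4% were found in DOC1 libraries alone, a share that includes regions of 1 library. A difference of 2 or more libraries in favour of DOC1, as at 1 region of each gene, was found for 12.2% of all regions. In the windows, 2 of the 13 regions had it. These shares count regions and not genes. Between 20 and 50 kb, both genes had regions in lacZ libraries. The HDAC1 and MTA1 windows likewise had peaks in a DOC1 library and in no lacZ library. DOC1 1 and DOC1 3 had the longest lists, of 7834 and 11032 peaks. In lists of equal length the peaks at CHD4 were lost, and at CHD3 only the peak beyond the 3′ end was kept, in DOC1 3. At CHD4, at chr12:6679249-6716551 on the minus strand, 1 region was found, chr12:6677610-6677991, 1258 bp beyond the 3′ end and next to NOP2, which encodes an rRNA methyltransferase. Its fold was 3.86 in DOC1 1, the 4.56th percentile of the list, from 11 reads. In DOC1 3 it was 5.66, the 66.5th percentile, from 24 reads. The peak in DOC1 1 was thus among the weakest of its list, and it was the 1 member peak of 24 lost under the stricter threshold on the q-value. Neither group had a peak inside CHD4 or at its start, where the nearest peaks were 66.3 kb away in all 3 lacZ libraries, 38.7 and 38.6 kb in DOC1 1 and DOC1 3 and 3185 kb in DOC1 2.

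CHD3, which encodes the alternative motor, at chr17:7788123-7816075 on the plus strand, had 3 regions, at chr17:7789161-7789420, chr17:7792488-7792759 and chr17:7818804-7819194. The first, 1038 to 1297 bp after the 5′ end of the span, was found in DOC1 3 with a fold of 4.79 (39.8th percentile, 24 reads). The second, inside the gene, was found in DOC1 1 with a fold of 5.51 (39.2nd percentile, 13 reads) and in DOC1 3 with a fold of 5.35 (58.1st percentile, 30 reads). The third, 2729 bp beyond the 3′ end and next to RNF227, was found in DOC1 3 with a fold of 6.89 (87.1st percentile, 35 reads). Presence in 2 of 3 DOC1 and 0 of 3 lacZ libraries, as for the CHD4 region and the second CHD3 region, gave a Fisher's exact p of 0.4 and an adjusted p of 1.0. The RefSeq table places the start of CHD3 3993 bp inside the 5′ end of the gene. Counted by that distance, the second region lay 372 to 643 bp after a start. The gene is 27953 bp long in hg19 and 27960 bp in GRCh38, so such distances can be off by some bases.

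The scaffold genes MTA1 and MTA2 both had their peaks beyond the 3′ ends, at MTA1 in 1 DOC1 library and at MTA2 in both groups. At MTA2, chr11:62360675-62369312 on the minus strand, the region chr11:62341161-62341600 was found in all 3 lacZ libraries and in DOC1 3. It lay 19075 bp beyond the 3′ end, on the side of TUT1 and EEF1G, the latter a subunit of a translation elongation factor. Its fold was 5.53 in lacZ 1 (46.5th percentile, 28 reads), 7.42 in lacZ 2 (74.8th percentile, 25 reads), 5.80 in lacZ 3 (38.9th percentile, 15 reads) and 3.72 in DOC1 3 (11th percentile, 41 reads). The 41 reads in DOC1 3 lay over a background of 9.71 reads. These percentiles come from lists of different length and are not compared. Presence in 3 of 3 against 1 of 3 libraries gave a Fisher's exact p of 0.4 and an adjusted p of 1.0. A second region, chr11:62359155-62359727, began 948 bp beyond the 3′ end and was found in DOC1 3 with a fold of 4.38 (27.9th percentile, 45 reads). It was the widest peak of all windows, at 573 bp.

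MTA1, at chr14:105886186-105937066 on the plus strand, had 2 regions, both in DOC1 1 and in no other library. They lay 10311 and 11239 bp beyond the 3′ end, on the side of CRIP2 and CRIP1, which encode small LIM-domain proteins. The first, chr14:105947377-105947671, had a fold of 7.21 (81.0th percentile, 14 reads) and the second, chr14:105948305-105948548, a fold of 4.98 (24.0th percentile, 11 reads). In the other 5 libraries the nearest peak lay 327.6 to 331.7 kb from the start of MTA1.

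MBD3 and GATAD2A, which join the deacetylase part of the complex to the motor part, held 3 of the 4 regions found in both groups. At MBD3, chr19:1576669-1592760 on the minus strand, the region chr19:1605978-1606363 lay 13218 bp or more upstream of the start, on the side of UQCR11 and of TCF3, a basic helix-loop-helix transcription factor. It was found in lacZ 1 with a fold of 5.53 (46.4th percentile, 56 reads), in lacZ 3 with 4.50 (11.3rd percentile, 21 reads) and in DOC1 3 with 6.02 (74.9th percentile, 34 reads). The summits of the 3 peaks lay within 13408 to 13439 bp before the start. A second region, chr19:1608350-1608646, was found in lacZ 1 with a fold of 6.11 (62.3rd percentile, 26 reads) and was the only region of the windows found in a lacZ library alone.

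GATAD2A, at chr19:19496642-19619741 on the plus strand, had a peak in every library except DOC1 2. Upstream, on the side of MAU2, a cohesin-loading factor, the region chr19:19477582-19477980 was found in lacZ 1 with a fold of 6.77 (74.2nd percentile, 29 reads), in DOC1 1 with 6.34 (64.9th percentile, 11 reads) and in DOC1 3 with 5.79 (69.7th percentile, 24 reads). The region inside the gene, chr19:19516048-19516493, was found in lacZ 2 with a fold of 6.73 (63.4th percentile, 19 reads), in lacZ 3 with 6.57 (57.6th percentile, 15 reads) and in DOC1 1 with 8.83 (94.1st percentile, 16 reads). The libraries that held the 2 regions differed, and DOC1 1 held both.

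The region inside GATAD2A lay 19406 to 19851 bp after the 5′ end of the span. The RefSeq table has a second start of GATAD2A 19832 bp after the 5′ end of the gene, so that, counted by distance, the region ran from -426 to +19 bp relative to this start. The gene is 123100 bp long in hg19 and 123090 bp in GRCh38. Counting such internal starts was an alternative added after the data were seen. With them, CHD4 peaks lay within 1 kb of a start of 3 genes. These were GATAD2A in lacZ 2, lacZ 3 and DOC1 1, CHD3 in DOC1 1 and DOC1 3, and HDAC1 in DOC1 1. The mean number of such genes per library went from 0 to 0.667 in lacZ and from 0.333 to 1.33 in DOC1. The share of all gene starts with a peak so near was not worked out, so this count has no background. The bases before the second GATAD2A start are shown because they are the part of a member gene's promoter where peaks of both groups met. They are chr19:19405425-19405674 in GRCh38.p14, plus strand, with the matches marked as above.
GATAD2A, second start: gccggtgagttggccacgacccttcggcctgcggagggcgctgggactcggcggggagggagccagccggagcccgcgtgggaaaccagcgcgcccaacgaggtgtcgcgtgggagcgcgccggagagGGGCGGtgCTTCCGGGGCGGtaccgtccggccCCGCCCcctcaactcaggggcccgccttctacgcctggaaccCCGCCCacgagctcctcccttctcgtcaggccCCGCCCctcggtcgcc
They held 32 CpG, 5 GC boxes and 1 ETS-type match that overlaps a GC box; 8.52% of entries hold an ETS-type match. Among all 13 starts that the table lists for the 9 genes, 10 held a GC box, 4 an ETS-type match and 3 a CCAAT box, and none held an E-box or an AP-1 match, which 6.34% and 6.57% of entries hold.

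**Figure D4:**
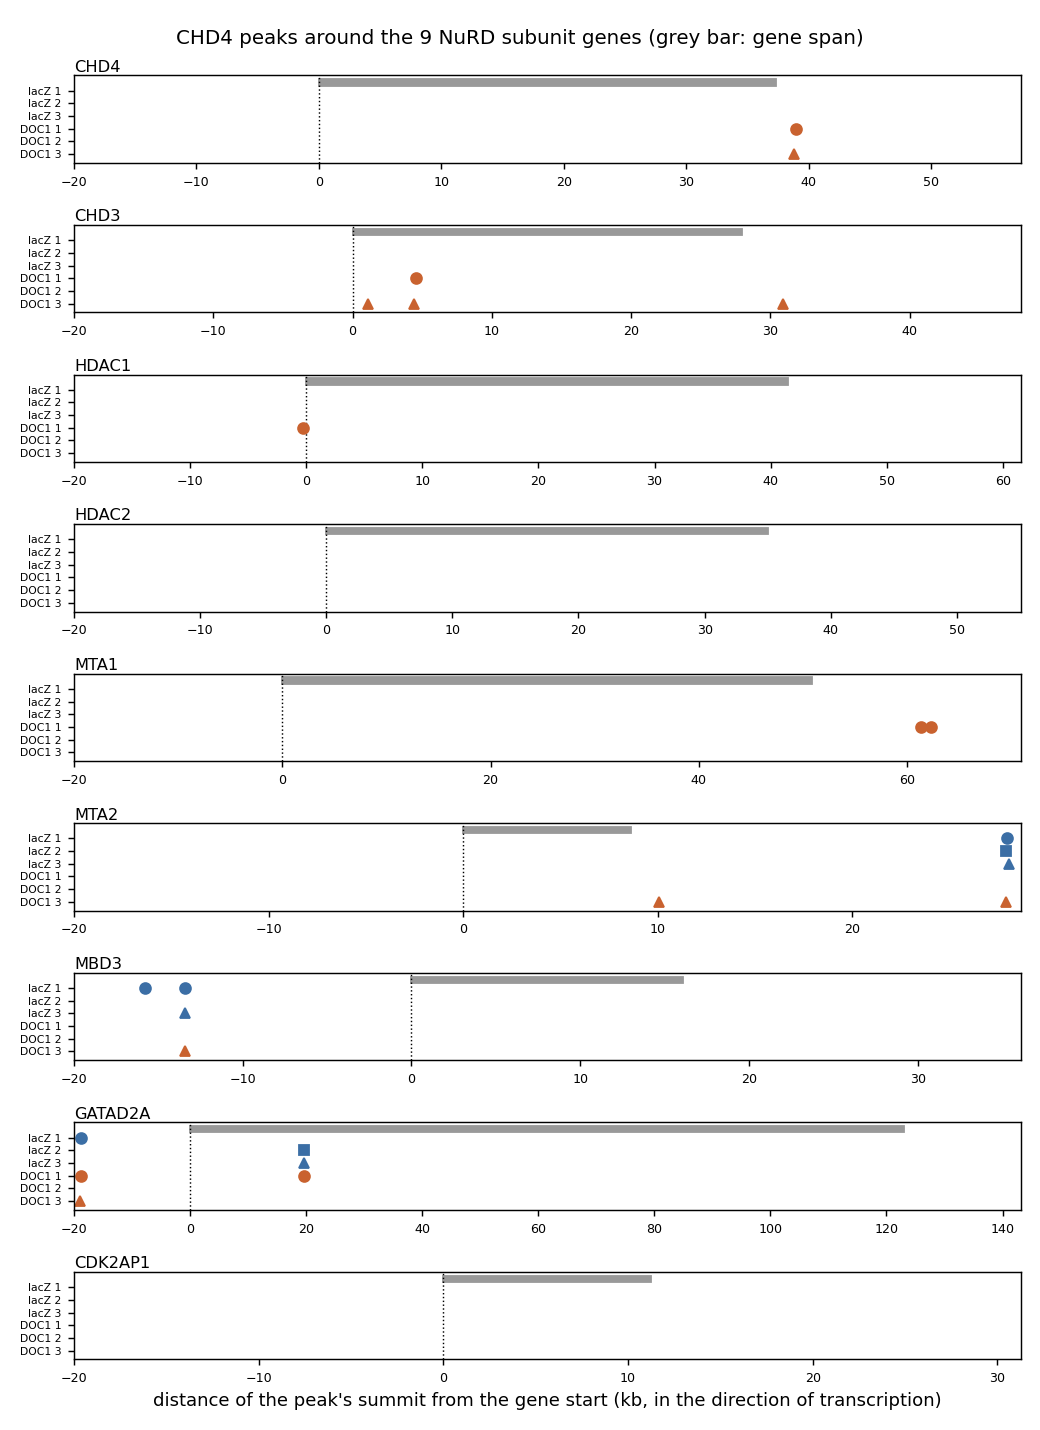
Summits of the 24 peaks by distance in kb from the gene start, in the direction of transcription, with 1 panel per gene, 1 line per library and the gene span as a grey bar. Summits of different libraries fall together at MTA2, MBD3, GATAD2A, CHD4 and the second CHD3 region, and most points lie off the grey bars.

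The limit of 20 kb placed the first MTA2 region, 19075 bp from its span, just inside. A peak of DOC1 3 at 20.4 kb upstream of the MTA2 span fell just outside.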

How the data were processed

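CHD4 ChIP-seq peak lists of 6 SCC9 libraries, 3 without and 3 with DOC1, were analysed, and the 2 IgG libraries were not used here. Per the labels, single 50 bp reads were made from libraries amplified for 18 PCR cycles. Per the submitters' processing notes, Trimmomatic 0.33, BWA 0.7.12-r1039, SAMtools 1.2 and MACS2 2.1.1.20160309 were used with hg19, while its settings and control track are unknown here. The lists deposited, 1 per library and not pooled, give each peak's position, its fold enrichment (a ratio), its −log10 p-value and −log10 q-value and a score that follows the q-value. The largest q-value listed was 0.00890 to 0.00972. Folds were used only within a list.

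The 9 genes, spans and lists were chosen with earlier results of these data known, so sums over the genes have no p-value. Described with their values are all regions near a start, in 4 or more libraries or differing by 2 or more libraries between groups, and the strongest of each locus per library. As these rules covered nearly all, the rest are given too. Strand, neighbouring genes and promoters came from RefSeq tables of GRCh38.p14, matched by symbol for all 9 genes. Other NuRD genes were not analysed here for want of hg19 spans.

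Reads at a summit were solved from the deposited fold, taken as pileup plus 1 over background plus 1, and the p-value, taken as a Poisson tail. They are whole numbers times 1 factor per library, within 0.005. The factor was 0.476, 0.671 and 0.809 in lacZ 1 to 3, 1.0 in DOC1 1 and DOC1 2 and 0.562 in DOC1 3. In 500 simulated peaks per library, 99.4% to 100% were recovered. The simulated peaks were built with the same formulas, so this checks the solving alone and not whether the peak caller used them. Median reads at a summit were 38, 27 and 22 in lacZ 1 to 3 and 15, 15 and 34 in DOC1 1 to 3. Reads carry no molecular identifiers, so intervals cover counting error only. As separate cultures are not stated, p-values describe how these libraries vary, possibly for technical reasons alone. The software was statsmodels 0.14.6, scipy 1.17.1, matplotlib 3.10.9, pandas 2.3.3, numpy 2.4.6 and Python 3.11.15. Alternatives were other flanks, summits, a stricter q-value, lists cut to 2812 peaks, other merging, other distances to the start and leaving out each library. The RefSeq starts were added as an alternative after seeing the data.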

Additional observations from a re-analysis of the deposited data

How the results depend on the processing

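Moving the flanks changed the counts by construction. With 0, 5 and 50 kb in place of 20 kb, the 13 regions became 3, 7 and 29, those of 1 library alone (7) became 1, 4 and 19, those of 4 or more libraries (1) became 0, 0 and 2, and those with 2 or more libraries more in lacZ (1) became 0, 0 and 2. Those with 2 or more more in DOC1 (2) became 1, 2 and 3. The difference in loci with a peak per library (DOC1 minus lacZ, 0.667) turned to -0.667 with 50 kb, and that in peaks per 1000 of the list (-0.0990) turned to 0.132 with 5 kb; the cause was not tested. In lists of equal length, 6 of the 24 member peaks were kept, the regions became 5, with 4 in 1 library alone, 0 in 4 or more and 0 with 2 or more libraries more in either group, and both groups had 1.0 peak per library. The stricter q-value left 1 region with 2 or more libraries more in DOC1. With 1 library left out, the difference in loci ranged from -0.167 (without DOC1 1 or DOC1 3) to 2.33 (without DOC1 2), and that in peaks per 1000 from -0.276 (without DOC1 1) to 0.171 (without DOC1 2). The difference in peaks, 2.0, ranged from 0.5 (without DOC1 3) to 4.5 (without DOC1 2), and that in gene starts, 0.333, from 0 (without DOC1 1) to 0.5. Regions in 4 or more libraries ranged from 0 to 1, and those with 2 or more more in DOC1 from 0 (without DOC1 1 or DOC1 3) to 3. Those with 2 or more more in lacZ ranged from 0 (whichever 1 lacZ library was left out) to 2. That 0 was fixed, as leaving out a lacZ library brings the difference at the MTA2 region under 2. Regions of every DOC1 and no lacZ library rose from 0 to 2 without DOC1 2, where 2 of 2 are asked for, and those of every lacZ and no DOC1 library ranged from 0 to 1 (without DOC1 3). The presence test over all regions called 0 under each alternative, also with the numbered pairs as a replicate block (exact sign test, smallest possible p 0.25). Fisher's exact test allows no p under 0.1 with so few libraries. The outcome of 0 was thus fixed in advance and is no sign of stability. Deviations in presence from the group mean correlated across regions at 0.0065, 0.031 and -0.019 between same-numbered libraries, and the numbers were not taken as pairs. Replicate 2 had the shortest list of either group, with 2812 peaks in lacZ 2 and 3448 in DOC1 2. Whether same-numbered libraries shared a batch was not tested. Merging within 500 bp and extended summits kept every count of regions. Summits of 11 to 16 reads limit how firmly single peaks can be read. All peaks at HDAC1 and MTA1 had such summits, as did peaks of 1 or more libraries at CHD4, CHD3, MTA2 and GATAD2A.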

Other observations

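Between 20 and 50 kb from the spans, the lists held a further 16 regions, which belong to no window above. They lay around 4 of the genes: 7 at MTA2, 6 at CHD3, 2 at CHD4 and 1 at HDAC2. Of these, 12 were found in 1 library alone, 11 in DOC1 libraries alone and 2 in lacZ libraries alone, and none in all 6. Of all regions of the series, 56.2% were found in 1 library alone, 55.4% in DOC1 libraries alone, 16.7% in lacZ libraries alone and 2.75% in all 6. DOC1 2 had no peak within 50 kb of any of the 9 genes. The region in the most libraries, singled out after its values were seen, was chr12:6649538-6650232, 29.0 kb beyond the 3′ end of CHD4. It was found in lacZ 1, lacZ 2 and lacZ 3 with folds of 9.84, 6.69 and 6.17 and in DOC1 3 with a fold of 5.28. The nearer CHD4 region of the report was found in DOC1 1 and DOC1 3 alone. A further region on this side, chr12:6642997-6643557, was found in DOC1 3 alone with a fold of 5.09. The regions on this side of CHD4 thus differed in their libraries, with DOC1 3 in each. At CHD3, a region at chr17:7760835-7761244, 26.9 kb upstream, was found in lacZ 1, lacZ 2 and DOC1 3 with folds of 6.39, 4.36 and 4.14, and it was the lacZ peak nearest to CHD3 in lacZ 1 and lacZ 2.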
